A study of Mus musculus with 8 samples.

Results

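The SLAM (signalling lymphocytic activation molecule) receptors and 2 SH2-domain adaptors of T cells were followed across the 8 libraries of a mouse CD8+ T-cell RNA-seq series. The genes were taken by name. They were the 6 chromosome 1 receptors Slamf1, Slamf6, Slamf7, Ly9, Cd84 and Cd48, and the 2 adaptors Sh2d1a and Sh2d2a. These are 8 of 48321 genes listed, and 8 of 8 passed the filter on low counts that left 12597 genes for testing. The cells were peripheral CD8+ T cells from the spleens of C57BL/6 mice, labelled WT or KO for a floxed Satb1 allele deleted by E8I-cre, a Cre driven by a Cd8a enhancer that acts in the mature CD8 lineage. Each genotype was sampled at day 0 and after 5 days of in vitro culture, with 2 libraries in each of the 4 groups. The labels do not say what the culture contained, how old the mice were, whether WT mice carried the floxed allele or Cre, or whether libraries of a group came from separate mice, so the p-values measure the spread between libraries, which may be technical.

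Library sizes ran from 4170126 to 11117971 reads assigned to genes, the largest being a KO day 0 library. Satb1 itself, the targeted gene, stood at 97.8 and 91.6 CPM (read counts scaled to a common library size) in WT at day 0. In KO at day 0 it stood at 144 and 125 CPM, so it was not lower there. At day 5 it stood at 96.5 and 116 CPM in WT and 56.5 and 62.3 CPM in KO. Its log2 fold change was 0.51 at day 0 (false discovery rate, FDR, 0.125) and -0.84 at day 5 (FDR 0.0162). Counts per gene do not show whether the floxed stretch was deleted, so they cannot settle the labels. "KO" therefore stands below for the libraries labelled KO, and a genotype direction at day 0, each culture change within a genotype and the interaction rest on the day 0 labels. The summed level of 6 CD8 T-cell markers was 10200 to 11500 CPM at day 0 and 6550 to 7340 CPM at day 5, against 1.36 to 6.26 CPM for 3 CD4 T-cell markers.

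SLAM receptors are immunoglobulin-type surface proteins of blood cells. Most of them bind a copy of themselves on the neighbouring cell, whereas CD48 is held by a lipid anchor and binds CD244 and CD2. The tails of the signalling members carry tyrosines that dock SAP, the product of Sh2d1a, which brings in the kinase FYN and supports contacts between T cells, B cells and infected cells. Loss of SAP causes X-linked lymphoproliferative disease in people. Sh2d2a encodes TSAd, another SH2 adaptor of T cells, which binds the kinase LCK.

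The 6 receptor genes lie side by side on mouse chromosome 1 (GRCm38, GENCODE M21 models). Their span of 364.5 kb runs from chr1:171588624-171607410, the Ly9 gene on the minus strand, over Slamf7 (chr1:171632403-171653035, minus), Cd48 (chr1:171682009-171705258, plus), Slamf1 (chr1:171767127-171801184, plus) and Cd84 (chr1:171839697-171890718, plus) to Slamf6 (chr1:171917515-171953170, plus). The gaps between neighbours were 25.0 to 61.9 kb. Sh2d1a is on the X chromosome (chrX:42502453-42529330, plus) and Sh2d2a on chromosome 3 (chr3:87846755-87855722, plus). Of the 8 genes, 6 shared no exon base with another gene. Slamf7 shared 423 exon bases (9.24%) with the antisense gene Gm37787, and Sh2d1a shared 1465 (26.6%) with Tenm1 on the other strand. The strand setting of the counting is not given in the sources used here, so reads of those stretches cannot be assigned to a strand.

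The promoters of 3 receptors are shown because these genes of one row went different ways, Slamf7 up and Slamf6 down with culture and Cd48 with the genotype label. The windows come from RefSeq (GRCm38.p6) and cover 250 bases before to 50 after the annotated start, read 5′ to 3′ on the gene's strand, at chr1:171681742-171682041 (plus) for Cd48, chr1:171648950-171649249 (minus) for Slamf7 and chr1:171917212-171917511 (plus) for Slamf6. The annotations disagree on where Slamf7 starts, since its RefSeq window lies inside the GENCODE gene model, whose outer end is at 171653035. Capitals mark matches to TGTGGT (RUNX), TCACACC (T-box), CTTTGA (TCF/LEF), TGANTCA (AP-1), CCGGAA (ETS) or GATAA (GATA) on either strand.
Cd48: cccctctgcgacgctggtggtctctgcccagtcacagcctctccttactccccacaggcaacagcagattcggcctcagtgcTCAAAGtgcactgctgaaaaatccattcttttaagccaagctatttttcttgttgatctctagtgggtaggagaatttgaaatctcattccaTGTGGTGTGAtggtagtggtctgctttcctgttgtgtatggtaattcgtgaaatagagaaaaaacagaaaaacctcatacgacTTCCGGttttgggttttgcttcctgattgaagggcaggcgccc
Slamf7: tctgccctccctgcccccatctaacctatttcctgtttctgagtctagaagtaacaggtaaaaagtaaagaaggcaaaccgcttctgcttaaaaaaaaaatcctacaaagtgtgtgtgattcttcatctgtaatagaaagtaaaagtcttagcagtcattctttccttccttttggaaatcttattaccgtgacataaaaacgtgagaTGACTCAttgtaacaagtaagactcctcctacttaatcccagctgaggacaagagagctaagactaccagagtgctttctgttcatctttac
Slamf6: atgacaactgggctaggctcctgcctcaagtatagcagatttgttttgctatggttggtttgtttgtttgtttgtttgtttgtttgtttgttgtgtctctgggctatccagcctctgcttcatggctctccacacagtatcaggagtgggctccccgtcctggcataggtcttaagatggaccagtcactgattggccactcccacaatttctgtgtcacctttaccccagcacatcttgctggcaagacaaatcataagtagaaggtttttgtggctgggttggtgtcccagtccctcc

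In the Cd48 window the capitals were a TCF/LEF match at position -168 from the start, a RUNX match at -76 that overlaps a T-box match at -73, and an ETS match at 8. Among 32851 windows of 300 bases, 16.0% held the TCF/LEF letters, 16.8% the RUNX letters, 3.98% the T-box letters and 14.9% the ETS letters. The Slamf7 window held an AP-1 match at -42, found in 7.81% of windows, and no other capitalised motif. The Slamf6 window held none of the 6. GATA letters were in 25.4% of windows, and a seventh motif, the E-box CANNTG, which is not in capitals, was in 72.3% of windows and in each of the 5 members matched in RefSeq. The other matched members were Cd84, with a RUNX match at -45 and an AP-1 match at -229, and Slamf1, with a GATA match at -129. Slamf7 had the window richest in A and T among the 5, at 61.0%, and 91.1% of all windows held less (median 47.3%). A match of letters is a description of the sequence and not a binding site.

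With culture, Slamf7 in both genotypes rose and Slamf6 and Cd84 fell, while Ly9 did not pass the test in either genotype. In WT 5 of the 8 genes passed an FDR of 0.05 between the days, 3 higher (Slamf1, Slamf7, Cd48) and 2 lower (Slamf6, Cd84), where 48.3% of all tested genes did (24.7% higher, 23.6% lower). In KO 7 of 8 passed, 4 higher (Slamf1, Slamf7, Sh2d1a, Sh2d2a) and 3 lower (Slamf6, Cd84, Cd48), against 50.2% of all tested genes (26.2% higher, 24.0% lower). In CPM the libraries of the days did not overlap for 6 of 8 genes in WT (73.7% of all tested genes) and for 8 of 8 in KO (77.9%). The median log2 fold change of the 8 genes was 0.17 in WT and 0.16 in KO, beside -0.04 and -0.05 over all tested genes. Since calls were this common among all genes, the size of the change is given gene by gene.

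**Figure D1:**
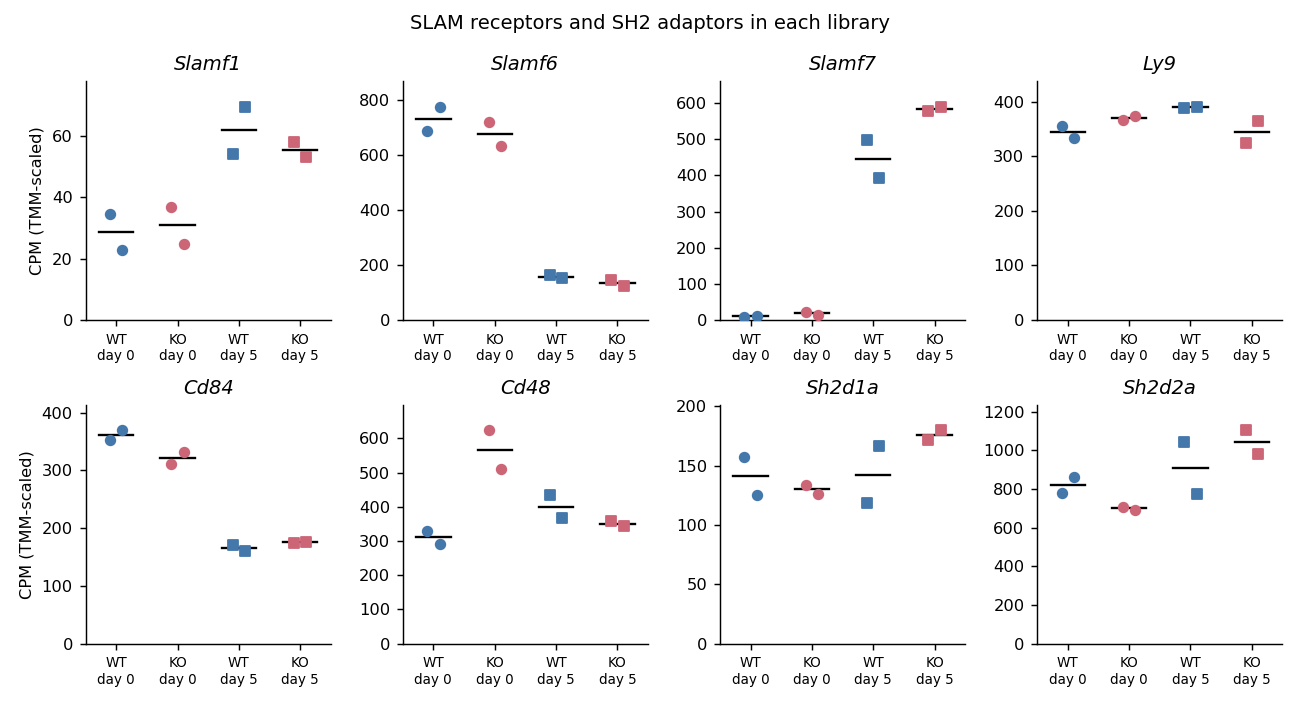
Level of each of the 8 genes in each library, in CPM scaled by TMM (linear axes from 0, a separate scale for each gene), with circles for day 0, squares for day 5, blue for WT, red for KO and a bar at the mean of the 2 libraries. Slamf7 went from 9.12 to 21.8 CPM at day 0 to 393 to 590 CPM at day 5, Slamf6 and Cd84 went down, and Cd48 stood highest in the 2 KO day 0 libraries.

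Slamf7, also called CRACC, is a self-binding receptor of NK cells, activated T cells and plasma cells. At day 0 the WT libraries held 9.12 and 11.1 CPM of it and the KO libraries 21.8 and 14.7 CPM. At day 5 these rose to 498 and 393 CPM in WT and 578 and 590 CPM in KO. The days did not overlap in either genotype. The rise was 44.3-fold in WT (log2 fold change 5.47, standard error 0.22, FDR 9.13e-10) and 31.2-fold in KO (4.96, 0.20, FDR 8.19e-10). Only 2.12% of tested genes had a higher log2 fold change in WT and 2.71% in KO. The day 0 level rested on 49 to 254 reads a library. Gm37787, the antisense gene that shares exon bases with Slamf7, was higher at day 5 too, by 4.99 in WT and 5.0 in KO on the log2 scale, from group means of 1.37 and 1.79 CPM to 44.7 and 65.2 CPM. The share of those reads that came from either strand was not tested. NK-cell markers, as other cells known for Slamf7, summed to 0.552 to 2.15 CPM over 3 genes in all 8 libraries. Summed myeloid markers (4 of 8 genes above 3 counts) were 13.0 to 22.4 CPM at day 0 and 35.1 to 73.6 CPM at day 5, with Fcgr1 at 0 in WT at day 0, Adgre1, Cybb and Fcgr1 at 0 in WT at day 5, Lyz2, Adgre1, Clec7a and Fcgr1 at 0 in KO at day 5, and none at 0 in KO at day 0. Their part in the Slamf7 level was not tested.

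Slamf6, or Ly108, is a self-binding receptor known on naive, memory and progenitor-like T cells. It stood at 689 and 776 CPM in WT and 720 and 633 CPM in KO at day 0, and at 163 and 154 CPM in WT and 144 and 124 CPM in KO at day 5. The 4 day 5 libraries all lay below the 4 day 0 libraries, with the genotypes overlapping at day 0. The fall was 4.63-fold in WT (log2 fold change -2.21, standard error 0.13, FDR 4.05e-08) and 5.04-fold in KO (-2.33, 0.13, FDR 2.19e-08). In bulk RNA, fewer cells that carry the transcript and less of it in each cell cannot be told apart.

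Cd84, a further self-binding receptor of T cells, B cells and platelets, fell with Slamf6 by less. It stood at 353 and 369 CPM in WT and 312 and 331 CPM in KO at day 0, and at 171 and 161 CPM in WT and 175 and 176 CPM in KO at day 5. Each day 5 library was again below each day 0 library. The fall was 2.18-fold in WT (log2 fold change -1.12, standard error 0.12, FDR 6.34e-06) and 1.84-fold in KO (-0.88, 0.12, FDR 4.43e-05). B-cell markers, as other cells known for Cd84 and Cd48, fell from 123 to 169 CPM at day 0 to 68.1 to 84.8 CPM at day 5 in their sum, with 6 of 8 genes above 3 counts. Of these genes Cd22 and Blk were at 0 in the WT day 0 libraries, Ms4a1, Blk and Fcer2a in the WT day 5 libraries, Cd22 in the KO day 5 libraries and none in the KO day 0 libraries. Their part in the fall of Cd84 was not tested.

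Slamf1, the founding member of the family and a costimulatory receptor, was low at day 0 and rose in culture. It gave 34.5 and 22.8 CPM in WT and 36.8 and 25.0 CPM in KO at day 0, then 54.2 and 69.6 CPM in WT and 57.9 and 53.2 CPM in KO. The spread within a group was wide at day 0 but the days did not overlap. The rise was 2.14-fold in WT (log2 fold change 1.10, standard error 0.24, FDR 0.00232) and 1.78-fold in KO (0.83, 0.23, FDR 0.01). The call in KO was lost without KO day 0 library 2 (0.59, FDR 0.0756) and without KO day 5 library 1 (0.78, FDR 0.0589).

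Ly9, or CD229, a self-binding receptor of T and B cells, had the smallest fitted culture changes of the 6 receptors. It read 355 and 334 CPM in WT and 367 and 374 CPM in KO at day 0, and 389 and 391 CPM in WT and 324 and 365 CPM in KO at day 5. The day 5 libraries were above those of day 0 in WT and below them in KO, yet neither difference passed the test (log2 fold change 0.18, FDR 0.221 in WT; -0.11, FDR 0.461 in KO). In KO it passed with library totals only (-0.29, FDR 0.043) and when adjusted for GC content and length of exons (-0.34, FDR 0.0242), and that adjustment put WT at -0.0215, the same direction as KO. The 95% confidence intervals were -0.07 to 0.43 in WT and -0.35 to 0.14 in KO.

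Cd48, the ligand of CD244 and CD2, went opposite ways with culture in the libraries labelled WT and KO. At day 0 it was 329 and 292 CPM in WT and 623 and 509 CPM in KO, and at day 5 it was 434 and 366 CPM in WT and 360 and 343 CPM in KO. Both WT day 5 libraries were above the WT day 0 libraries and both KO day 5 libraries were below the KO day 0 libraries. Such an opposite day response without overlap was shared by Ly9, so by 2 of the 8 genes, and by 3.0% of all tested genes. An opposite genotype difference at the days was found for Cd48, Ly9 and Cd84, so for 3 of the 8, and for 8.31% of all tested genes. An exchange of the day 0 labels turns every day 0 difference around, so any gene picked for opposite signs loses them, which cannot test the labels. With it none of the 3 genes would differ in opposite ways at the days, while Slamf7, higher in KO at both days without overlap, would. The Cd48 values would then be a fall in WT and a rise in KO. As labelled, the fall in KO was 1.61-fold (log2 fold change -0.69, standard error 0.14, FDR 0.00112), and -1.11 on the log2 scale when adjusted for GC content and length of exons (FDR 1.74e-05). In WT the rise was small (0.37, 0.14, FDR 0.0429) and its direction turned with the same adjustment (-0.31, FDR 0.0633). The WT call was also lost without WT day 0 library 1 (0.47, FDR 0.0712) or library 2 (0.29, FDR 0.242), without WT day 5 library 1 (0.26, FDR 0.191), and without KO day 5 library 1 (0.38, FDR 0.061) or library 2 (0.38, FDR 0.0603).

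Without adjustment for GC content and length of exons, the adaptors had smaller fitted culture changes than Slamf7, Slamf6 and Cd84. With it, Sh2d1a in KO stood at 0.68 (FDR 0.00308) and Cd84 in KO at -0.67. Sh2d1a, which encodes SAP, was 158 and 125 CPM in WT and 134 and 126 CPM in KO at day 0, and 118 and 167 CPM in WT and 172 and 180 CPM in KO at day 5. The WT libraries of the days overlapped, and the KO libraries did not. A fit of the 4 KO libraries alone put the rise of Sh2d1a in KO at 0.43 (FDR 0.00925). In the fit of all 8 libraries Sh2d1a had a log2 fold change of 0.01 in WT (95% confidence interval -0.36 to 0.37, FDR 0.983). There it rose in KO by 0.43 (standard error 0.17, FDR 0.0472). That call sat at the threshold and was lost without any of WT day 0 library 1 (FDR 0.0523), WT day 0 library 2 (FDR 0.0527), KO day 0 library 1 (FDR 0.0881), KO day 0 library 2 (FDR 0.157), KO day 5 library 1 (FDR 0.111) or KO day 5 library 2 (FDR 0.169).

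Sh2d2a, which encodes TSAd, was 779 and 862 CPM in WT and 709 and 691 CPM in KO at day 0, and 1046 and 777 CPM in WT and 1104 and 982 CPM in KO at day 5. The WT days overlapped because of the second WT day 5 library, and the KO days did not overlap. The rise in KO was 1.49-fold (log2 fold change 0.58, standard error 0.14, FDR 0.0045). In WT the difference was 0.15 (FDR 0.395), and it passed the test without WT day 5 library 2 (0.39, FDR 0.019) and turned without WT day 5 library 1 (-0.05, FDR 0.745).

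**Figure D2:**
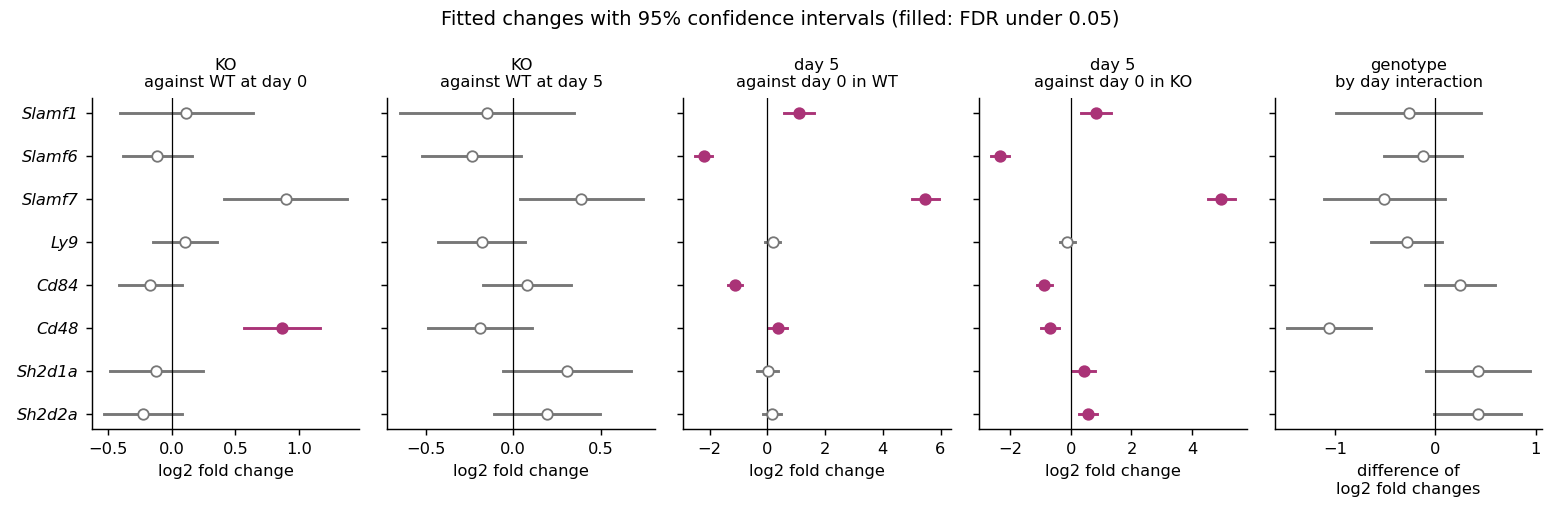
Fitted log2 fold changes of the 8 genes (points) with 95% confidence intervals (lines) in the 5 comparisons, filled where the FDR was under 0.05, on an axis of its own in each panel. The 2 culture panels hold the filled points at 5.47 and 4.96 for Slamf7 and at -2.21 and -2.33 for Slamf6, and Cd48 is the only filled point between genotypes.

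Levels per kilobase of exon set the receptors side by side, in an order that depends on the exon lengths used. These were 1.189 kb for Cd48 and 10.832 kb for Slamf6, and the annotation used for counting is not known. In CPM, Cd48 in WT at day 0 (310) was below Slamf6 (732), Cd84 (361) and Ly9 (345). At day 5 it was below Slamf7, at 400 against 445 CPM in WT and 351 against 584 CPM in KO. In WT at day 0 the order was Cd48 (261 CPM per kb), Ly9 (104), Slamf6 (67.6), Cd84 (57.6), Slamf1 (4.66) and Slamf7 (2.21). In WT at day 5 the order was Cd48 (337 CPM per kb), Ly9 (118), Slamf7 (97.3), Cd84 (26.4), Slamf6 (14.6) and Slamf1 (10.1). Slamf7 thus went from the last place to the third. In KO at day 5 Slamf7, at 128 CPM per kb, stood above Ly9 at 104. Neighbours in the order did not overlap between libraries in any group except Slamf1 and Slamf7 in KO at day 0, at mean levels of 5.02 and 3.98 CPM per kb. Of the adaptors, Sh2d2a lay between 118 and 176 CPM per kb in the 4 group means and Sh2d1a between 23.6 and 31.9.

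As a share of the summed CPM per kb of the 6 receptors, Slamf7 made up 0.445% in WT and 0.555% in KO at day 0, and 16.1% and 22.1% at day 5. Slamf6 made up 13.6% and 8.79% at day 0 and 2.43% and 2.15% at day 5. Cd84 made up 11.6% and 7.27% at day 0 and 4.40% and 4.85% at day 5, and Ly9 21% and 15.9%, then 19.7% and 18.1%. By this length-dependent measure Cd48 held the largest share in every group, with 52.4% in WT and 66.8% in KO at day 0. At day 5 its share was 55.8% and 51.2%, while Slamf1 stayed at 0.699% to 1.69% over all groups. The sum itself was 497 ± 20.3 CPM per kb in WT and 711 ± 72.3 in KO at day 0, and 603 ± 56.3 and 576 ± 1.18 at day 5 (SD, n = 2 each). A share moves with this sum, so a lower share is not by itself a lower level. Slamf6 stood at 67.61 CPM per kb in WT and 62.45 in KO at day 0. The ratio of Slamf7 to Slamf6 within a library does not depend on a factor that scales the whole library, though the adjustment for GC content and length of exons would move it. Per kb, its log2 value was -5.00 and -4.89 in WT and -3.80 and -4.19 in KO at day 0, and 2.86 and 2.60 in WT and 3.25 and 3.49 in KO at day 5. The ratio was higher in the KO libraries than in the WT libraries at each day, with no overlap, a contrast for which no test was run.

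**Figure D3:**
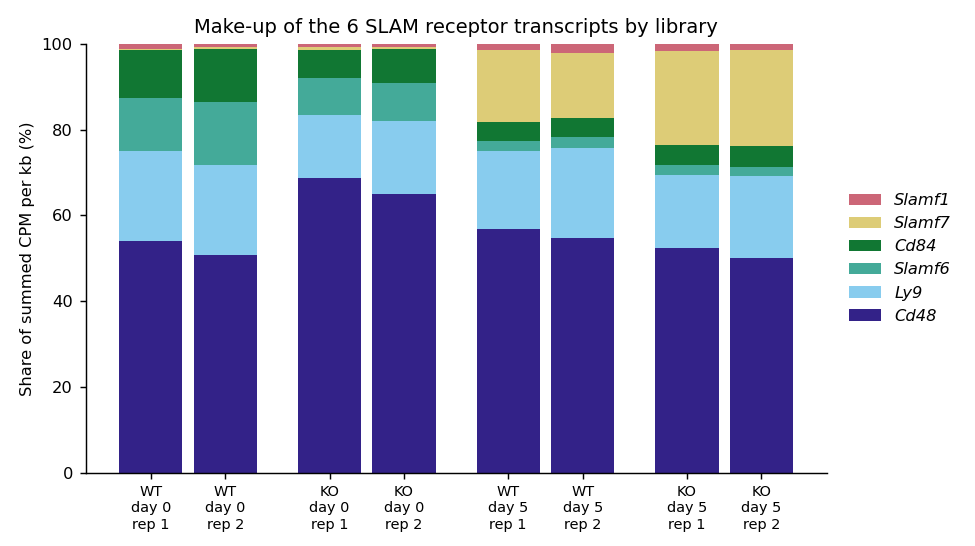
Share (%) of the summed CPM per kb that each of the 6 receptors took in each of the 8 libraries, as stacked bars of 100%. Cd48 took the largest part throughout, the Slamf7 band widened from under 1% at day 0 to 16.1% in WT and 22.1% in KO on average at day 5, and the Slamf6 band narrowed to 2.43% and 2.15%.

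The genotype comparison at day 0 asks how these genes stood in cells taken from the mice. Here 1 of 8 genes passed, Cd48, which was higher in KO, where 1.80% of all tested genes passed, 0.913% higher and 0.889% lower. The median log2 fold change of the 8 genes was -0.00453, beside -0.00172 over all tested genes, and 2 of the 8, Cd48 and Slamf7, had an unadjusted p under 0.05. Cd48 was 1.83-fold higher in KO (log2 fold change 0.87, standard error 0.14, 95% confidence interval 0.57 to 1.17, FDR 0.00665), which ranked 1234 of 12597 tested genes by size in either direction. The call was lost without WT day 0 library 1 (0.96, FDR 0.0824) or library 2 (0.78, FDR 0.146), with the size of the difference kept. B-cell markers summed to 123 and 124 CPM in WT and to 143 to 169 CPM in KO at day 0, and their part in the Cd48 difference was not tested.

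Slamf7 differed by 0.90 on the log2 scale at day 0, from 49 to 254 reads a library, and did not pass (standard error 0.22, 95% confidence interval 0.41 to 1.38, FDR 0.0711). It passed without KO day 0 library 2 (1.15, FDR 0.0165), without WT day 5 library 2 (0.93, FDR 0.0423) and with DESeq2 (0.90, FDR 0.00973). It fell to 0.54 without KO day 0 library 1 (FDR 0.397) and was 0.75 without WT day 0 library 1 (FDR 0.456). The other 6 genes had log2 fold changes between -0.23 for Sh2d2a (FDR 0.528) and 0.12 for Slamf1 (FDR 0.892). Slamf6 stood at -0.11 (95% confidence interval -0.39 to 0.16), Ly9 at 0.10 (-0.14 to 0.35), Cd84 at -0.17 (-0.41 to 0.08) and Sh2d1a at -0.12 (-0.49 to 0.24). Without overlap between genotypes were Slamf7, Ly9, Cd84, Cd48 and Sh2d2a, which is 5 of 8 beside 43.4% of all tested genes.

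At day 5 none of the 8 genes passed between genotypes in edgeR or in DESeq2, where edgeR called 1.63% of all tested genes, 1.31% higher in KO and 0.318% lower. The libraries of the genotypes did not overlap for 6 of 8 genes, beside 45.6% of all tested genes. Only Slamf7 had an unadjusted p under 0.05. It was 0.39 higher in KO on the log2 scale (standard error 0.16, 95% confidence interval 0.04 to 0.74, FDR 0.296), at 445 ± 73.7 CPM in WT and 584 ± 8.78 CPM in KO (SD, n = 2 each). That difference was 0.58 without WT day 5 library 1 and 0.23 without WT day 5 library 2. Sh2d1a stood at 0.31 (-0.06 to 0.67), at 0.0856 without WT day 5 library 1 and at 0.57 without WT day 5 library 2. Of the others, Sh2d2a stood at 0.19 (-0.11 to 0.50), Cd84 at 0.08 (-0.17 to 0.33), Slamf1 at -0.15 (-0.65 to 0.35), Ly9 at -0.18 (-0.43 to 0.07), Cd48 at -0.19 (-0.49 to 0.11) and Slamf6 at -0.24 (-0.52 to 0.05). These intervals leave room for changes of either sign. The median over the 8 genes was -0.04, beside 0 over all tested genes.

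The genotype by day interaction, which compares the culture change in KO with that in WT, passed for none of the 8 genes in edgeR, where 0.159% of all tested genes passed (0.0794% higher and 0.0794% lower), and for 1 of them, Cd48, in DESeq2, which called 144 of 12597 genes where edgeR called 20. Only Cd48 had an unadjusted p under 0.05 in edgeR. Its culture change was lower in KO by 1.06 on the log2 scale (standard error 0.19, 95% confidence interval -1.48 to -0.64, FDR 0.0565). The call was made without KO day 0 library 2 (-1.24, FDR 0.0293) and without WT day 5 library 2 (-1.20, FDR 0.0433), and not in the other 6 fits with a library left out, up to an FDR of 0.354 without WT day 0 library 2 (-0.98). Adjusted for GC content and length of exons it was -0.80 (FDR 0.186). The others ran from -0.51 for Slamf7 (FDR 0.49) to 0.43 for Sh2d1a (FDR 0.497). With single libraries left out, Slamf7 ran from -0.77 (without KO day 0 library 2) to -0.16 (without KO day 0 library 1) and Sh2d1a from 0.20 (without WT day 5 library 1) to 0.67 (without WT day 5 library 2), with no call. For Sh2d2a and Sh2d1a, which passed between the days in KO and not in WT, the difference between genotypes itself did not pass (0.42, FDR 0.412; 0.43, FDR 0.497).

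Cd244 encodes a receptor for CD48, and its gene model (chr1:171559193-171609746, plus) spans Ly9 on the other strand with no exon base shared. It was not among the 8 genes but shows what the partner of Cd48 did. It read 0.894 and 1.36 CPM in WT and 1.29 and 1.47 CPM in KO at day 0, from 5 to 15 reads a library. At day 5 it read 6.53 and 4.82 CPM in WT and 55.6 and 59.1 CPM in KO, with both KO libraries above both WT libraries. The difference at day 5 was 9.94-fold (log2 fold change 3.31, standard error 0.25, FDR 5.69e-05), and the rise with culture was 2.36 on the log2 scale in WT and 5.38 in KO. The interaction was 3.02 (FDR 0.0565). It passed with DESeq2 (3.02, FDR 0.00257), without the filter on low counts (2.99, FDR 0.00736) and without WT day 5 library 1 (3.28, FDR 0.0472), and not in the other 7 fits with a library left out, up to an FDR of 0.417 without WT day 0 library 2 (2.73). Cd2, the other receptor of CD48, rose slightly with culture in both genotypes, by 0.35 in WT (FDR 0.0229) and 0.30 in KO (FDR 0.0426).

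Around these genes, 25 genes were listed, among them the family members outside the 8, further adaptors, kinases, phosphatases and downstream factors. The list also held genes of cells that depend on SAP, which are not parts of the pathway (Zbtb16, Cxcr5, Bcl6, Il21 and Il4). Of the 25 genes 18 could be tested. Slamf8, Slamf9, Sh2d1b1, Sh2d1b2, Zbtb16, Il21 and Il4 had too few reads. Sh2d1b1 and Sh2d1b2 encode the EAT-2 adaptors, and Sh2d1b1 had at most 1 read in any library. With culture 12 of the 18 passed in WT, 3 higher and 9 lower, with a median log2 fold change of -0.38, where 48.3% of all tested genes passed. In KO 9 passed, 3 higher and 6 lower, with a median of -0.18, where 50.2% of all tested genes passed. Higher in both were Cd244, Cd2 and Nfkb1, an NF-kappaB subunit gene (1.07 in WT, 0.95 in KO). Among those lower in both were Vav1, a guanine nucleotide exchange factor gene (-0.68, -0.48), Prkcq, encoding PKC-theta (-0.92, -0.83), the transcriptional repressor gene Bcl6 (-3.26, -2.78) and the chemokine receptor gene Cxcr5. Cxcr5 went from 12.3 CPM to 0 and 1 reads in the WT day 5 libraries and from 2.29 CPM to 3 and 1 reads in the KO day 5 libraries. In WT alone Lck (-0.48), Csk (-0.48), Ptpn6 (-0.39) and Arhgef7 (-1.04) passed, and in KO alone Hsh2d (-0.91). None of the interactions in this list passed in edgeR, with 3 at an unadjusted p under 0.05, and 1, that of Cd244, passed in the alternatives named above for it. Between genotypes 1 of 18 passed at day 0, Cxcr5 (12.3 CPM in WT, 2.29 CPM in KO, log2 fold change -2.53, FDR 0.0243), and 1 at day 5, Cd244, beside 1.80% and 1.63% of all tested genes. At day 5 the count was 2 with DESeq2 and 2 without the filter, which added Inpp5d, a lipid phosphatase gene. The Cxcr5 call was lost, and the count was 0, without WT day 0 library 1, WT day 0 library 2 or KO day 0 library 1. Fyn and Lck, the kinases tied to SAP and TSAd, did not pass between genotypes at either day.

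The position of the receptors in a row raises whether they moved with their neighbours. Within 500 kb of the span, 36 other genes were tested. With culture 15 of 36 passed in WT (4 higher, 11 lower, median log2 fold change -0.23) and 14 in KO (6 higher, 8 lower, median -0.12), beside 48.3% and 50.2% of all tested genes. The count was 8 in WT without WT day 0 library 2, and 9 in KO without KO day 0 library 1 or either KO day 5 library. Within the row itself Slamf7 rose between Ly9, which did not pass, and Cd48, and the fall of Cd84 and Slamf6 began next to Slamf1, which rose. Kcnj9, a potassium channel gene, was lower in KO at day 0 (4.79 against 0.41 CPM, FDR 0.033), where it rested on 1 and 4 reads. Between genotypes it was the 1 of 36 neighbours that passed at day 0, beside 1.80% of all tested genes. That count was 0 without either WT day 0 library, KO day 0 library 1, either WT day 5 library or KO day 5 library 1, and with a filter of 5 CPM, and it was 2 without the filter on low counts. The median log2 fold change of the 36 neighbours was 0.24 at day 0 and 0.31 at day 5, beside -0.00172 and 0 over all tested genes. At each day 12 of 36 had an unadjusted p under 0.05, beside 1742 of 12597 tested genes at day 0 and 1775 at day 5. At day 5 Ppox, a heme synthesis enzyme gene (43.8 against 83.9 CPM, 0.94 on the log2 scale, FDR 0.00931), and Cd244 were higher in KO, 2 of 36 beside 1.63% of all tested genes, with 1 of 36 without either KO day 5 library, 4 with DESeq2 and 6 without the filter on low counts.

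**Figure D4:**
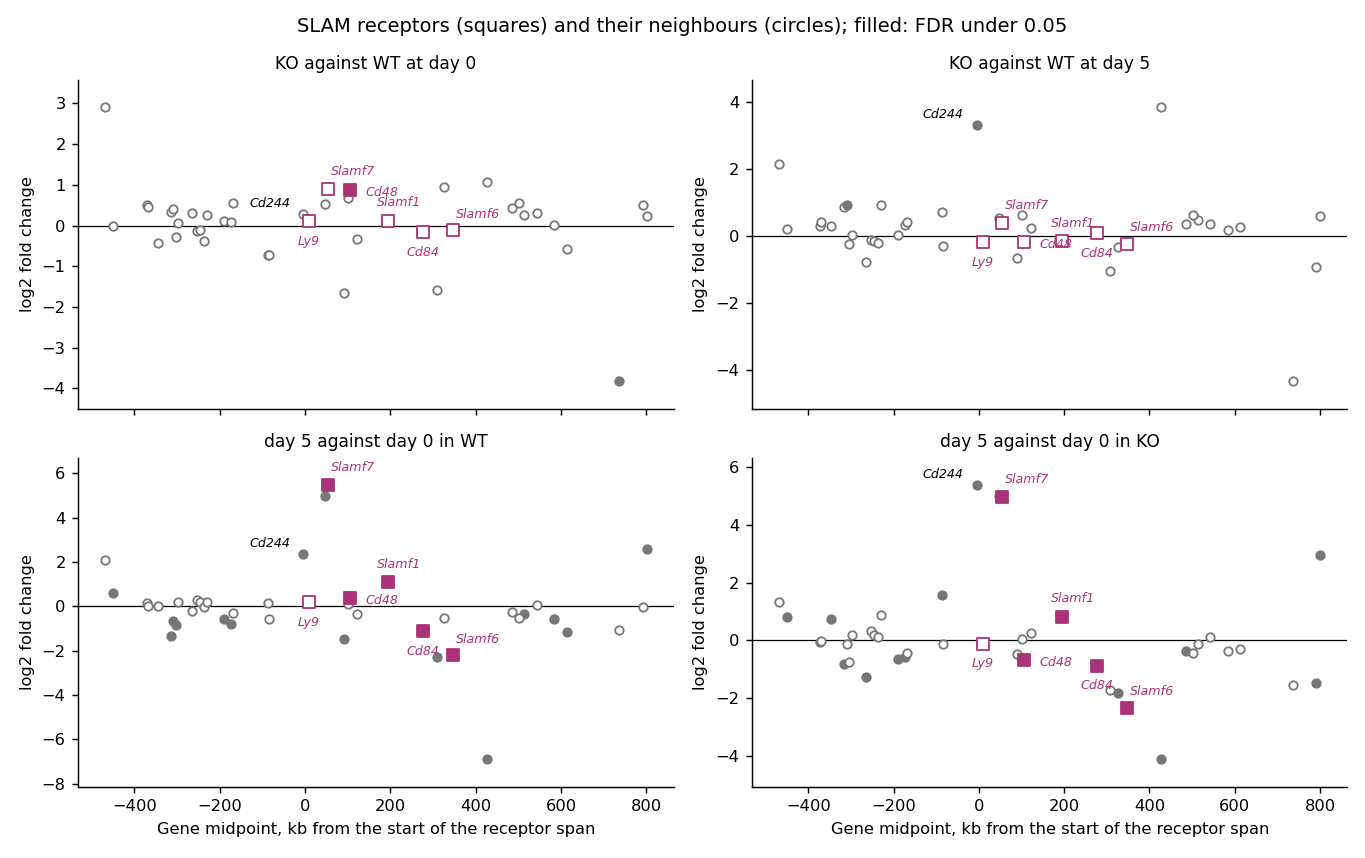
Fitted log2 fold change of the 6 receptors (squares) and of the 36 neighbours tested (circles) against the midpoint of each gene in kb from the start of the 364.5 kb receptor span, in 4 comparisons, filled where the FDR was under 0.05. Slamf7 stands at 5.47 and 4.96 in the culture panels with Cd84 and Slamf6 below 0, and Cd48 is the filled square between genotypes at day 0.

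The genes whose pattern over the 8 libraries was most like each member's are given by Pearson's r of log2 CPM as a description, since the libraries fall into a day 0 and a day 5 set that fix most of it. For Slamf7 they were Tk1 and Commd10 (0.999 each), for Slamf6 Atp1b3 and Arl4c (0.998 each), and for Cd84 Ggt1 (0.998) and Fam189b (0.997). For Slamf1 they were Ralgds (0.991) and Brox (0.986). The genes less tied to the day had looser partners, Arfgef1 (0.966) and Pou5f2 (0.952) for Cd48, Tmem243 (0.929) and Zfp286 (0.916) for Ly9, Fkbpl (0.980) and Atat1 (0.946) for Sh2d1a, and Actl6a (0.976) and Gnai2 (0.973) for Sh2d2a.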

How the data were processed

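Total RNA of sorted splenic CD8+ T cells was made into NEBNext Ultra libraries and read at 50 bases on a HiSeq2500, per the labels. The deposited values are raw counts per gene for each library, which the authors made with HTSeq 0.11.1 after HISAT2 2.1.0, with builds mm10 and GRCm38 named in the submitters' processing notes. The annotation and strand setting are not given in the sources used here. The gene counts were 21.2 to 24.5% of the records in each file, and 5 summary lines were left out. Replicates differed by more than counting noise (chi-square per degree of freedom 4.69 to 9.40), so no pair was taken as a single library deposited again.

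All 8 libraries were fitted together in edgeR 4.0.16 (quasi-likelihood test, TMM factors, default filterByExpr with a minimum count of 10, R 4.3.3), with two-sided p-values adjusted by the Benjamini-Hochberg method over 12597 genes and called at an FDR under 0.05. The common biological coefficient of variation was 15.0%. CPM are counts scaled to library size with TMM factors. CPM per kb used the exon lengths of GENCODE M21, and confidence intervals are at 95%. DESeq2 1.42.0, other scalings, filters, blocks and left-out libraries served as alternatives. The 8 genes, the pathway list and the tests were chosen with earlier results of these data known, and the motifs after the data were seen. The named genes are the 8 members, called genes of the pathway and neighbour lists (an item of the pathway list is not reported here), and the 2 genes most correlated with each member.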

Additional observations from a re-analysis of the deposited data

Results flagged for a closer look

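Cd48, Ly9 and Cd84 drew attention because their libraries moved in opposite directions. Cd48 rose between the days in both WT libraries and fell in both KO libraries, and it was higher in KO at day 0 and lower at day 5, with no overlap in any of these contrasts. Its interaction log2 fold change was -1.06 (edgeR, FDR 0.0565). Adjusting for GC content and length of exons ended both opposite orders, with -0.31 between days in WT and 0.03 between genotypes at day 5, and left an interaction of -0.80 (FDR 0.186). With the day 0 labels exchanged, the genotype difference would not be opposite at the days for any of the 3 genes, but would be for Slamf7. This follows from turning every day 0 sign and cannot test the labels. Ly9 showed the same opposite orders as Cd48 in both respects, with a far smaller interaction of -0.28 (edgeR, FDR 0.508). Adjusting for GC content and length of exons ended its opposite day order, with -0.0215 in WT and -0.34 in KO. It left the opposite genotype difference of Ly9, with 0.12 at day 0 and -0.20 at day 5. Cd84 was lower in KO at day 0 and higher at day 5 without overlap, with an interaction of 0.25 (edgeR, FDR 0.578), and fell between the days in both genotypes. For Cd84 the adjustment widened the opposite genotype difference, to -0.31 at day 0 and 0.18 at day 5, with an interaction of 0.49 that was not called. Among all 12597 tested genes, 3.0% showed an opposite day response in the genotypes without overlap and 8.31% an opposite genotype difference at the days. The interaction test in edgeR called none of these 3 genes, while DESeq2 called Cd48 (-1.06, FDR 0.000238), as did edgeR with either replicate block (FDR 0.0321 and 0.0141). With single libraries left out its FDR ran from 0.0293 to 0.354, and 6 of 8 such fits did not call it.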

How the results depend on the processing

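In each genotype 17 alternatives were run on the change between days, and 16 on each other comparison. The 8 genes kept their direction and side of the threshold in 599 values, lost a call in 21, gained a call in 15 and changed sign in 21. The culture calls of Slamf6, Slamf7 and Cd84 held in 17 of 17 alternatives in both genotypes. The number of the 8 genes passing between genotypes at day 0 was 1, and 2 with library totals only, without the filter or with DESeq2, through Slamf7, whose FDR there was 0.05 (under it unrounded), 0.000579 and 0.00973. It ran from 0 to 2 with single libraries left out. For the interaction it was 0, and 1 with library totals only, without the filter, with DESeq2 or with either replicate block, always Cd48 (FDR 0.0292, 0.000153, 0.000238, 0.0321 and 0.0141), and 0 to 1 with single libraries left out.

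Sign changes, of a called gene only for the last, were these. With a GC and exon length offset, Slamf1 was -0.00055 between genotypes at day 0, Cd48 was 0.0323 and Sh2d2a -0.0369 at day 5, Sh2d1a was -0.0321 and Ly9 -0.0215 between days in WT, and Slamf6 was 0.0842 in the interaction. Sh2d1a between days in WT was also -0.12 with library totals, -0.0094 without the filter, -0.0058 with the filter of 5 CPM and -0.0059 with the replicate block within genotype. With single libraries left out, the value at day 0 ran from -0.22 (KO day 0 library 1, and -0.15 without WT day 0 library 2) to 0.452 for Slamf1, from -0.279 to 0.0563 (WT day 0 library 1) for Sh2d1a and from -0.22 to 0.0095 (KO day 0 library 2) for Slamf6. At day 5 it ran from -0.317 to 0.038 (WT day 5 library 2) for Slamf1 and from -0.0037 (WT day 5 library 2) to 0.434 for Sh2d2a. Between days in WT it ran from -0.23 (WT day 5 library 2, and -0.14 without WT day 0 library 2) to 0.257 for Sh2d1a and from -0.0545 (WT day 5 library 1) to 0.386 for Sh2d2a, and in the interaction from -0.608 to 0.061 (KO day 0 library 1) for Slamf1. Cd48 between days in WT was -0.31 with the offset. The cause was not tested.

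Cd48 between days in WT also lost its call with library totals (0.23, FDR 0.14), without the filter (FDR 0.0908) and in a fit of its 4 libraries (FDR 0.0506). Sh2d1a between days in KO lost it with library totals (0.25, FDR 0.261), without the filter (FDR 0.0874) and with the replicate block (FDR 0.0551). Ly9 between days in KO passed with library totals (-0.29, FDR 0.043) and with the offset (-0.34, FDR 0.0242). The replicate numbers were not taken as pairs: the labels state no pairing, and same-numbered libraries correlated at -0.0742 to 0.228 in their deviations. The replicate block left 216 genes called at day 0, 215 at day 5, 5999 and 6291 between days in WT and KO, and 29 in the interaction, and the block within genotype 55 there. It changed no other call of the 8 genes.

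Scaling moved the median of all genes between days from -0.04 to -0.17 with library totals and -0.19 with the offset in WT, and from -0.05 to -0.23 and -0.20 in KO. Higher and lower calls in WT were 3112 and 2969, 2668 and 3560 with totals and 2598 and 3506 with the offset, and in KO 3296 and 3029, 2755 and 3936, and 2795 and 3780. The interaction called 20 genes, 154 without the filter, 144 with DESeq2 and 12 with the offset. At day 5, 205 became 350 with DESeq2, 418 without the filter and 119 with the offset, and at day 0, 227 became 434 without the filter. With single libraries left out these counts ran from 0 to 41, 32 to 249 and 38 to 276. Slamf7 rested on few reads at day 0 (49 to 254), and the part of depth in its error was not tested.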
